A study of Homo sapiens with 12 samples.

Results

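The genes described here carry glucose into liver cancer cells and set the level of glucose 6-phosphate once it is inside. They are the facilitative glucose transporters SLC2A1, SLC2A2, SLC2A3, SLC2A4 and SLC2A8, the hexokinases HK1, HK2 and HKDC1, and G6PC3, a glucose-6-phosphatase. They were chosen as named members of these families, with no threshold on their values, and all 9 were found among the 22963 gene names of the expression file. The question was which isoform leads in each hepatocellular carcinoma (HCC) cell line and how the levels differed with EGR1, a zinc-finger transcription factor.

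The 12 libraries fell into 4 groups of 3. PLC/PRF5 cells carried either the empty vector or EGR1 overexpression, delivered by a lentiviral plasmid with a CMV promoter. MHCC97H cells were either parental or EGR1 knockout by label. The study made its knockout lines as single clones with CRISPR/Cas9, and which clone was sequenced is not given in the sources used here. Both lines are established HCC lines and were grown in DMEM with fetal bovine serum, and the labels name no drug for any group. The labels call the replicates biological without saying whether they were separate cultures, so that p-values measure only the spread between these libraries. The overexpression was set against a vector control, the knockout label against parental cells without a stated control construct. In bulk RNA, fewer cells that use a gene and less of its RNA per cell cannot be told apart.

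SLC2A proteins move hexoses down their gradient. SLC2A1 and SLC2A3 are high-affinity transporters of the plasma membrane, SLC2A2 is the high-capacity transporter of the healthy hepatocyte, SLC2A4 is the insulin-responsive transporter of muscle and fat, and SLC2A8 resides mostly inside the cell. Hexokinases then add a phosphate, which traps glucose in the cell. Healthy hepatocytes hold little HK2, and a gain of HK2 is well known in liver cancer. G6PC3 is the broadly expressed counterpart of the liver enzyme G6PC and removes the phosphate in the endoplasmic reticulum.

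EGR1 itself was read in every library first. Its level was 1.97, 1.43 and 2.03 FPKM in the vector libraries and 56.3, 50.2 and 52.2 FPKM with EGR1 overexpression. Parental MHCC97H libraries gave 20.2, 23.1 and 21.2 FPKM, and those labelled EGR1 knockout gave 35.2, 50.3 and 32.9 FPKM. FPKM are fragment counts scaled to transcript length and library size, and levels of different genes are set side by side on this scale. Whether GC content or library preparation shifts the level of a gene against that of another was not tested. EGR1 mRNA was thus higher, not lower, in the libraries labelled EGR1 knockout, by 0.83 ± 0.15 (SE) on the log2(FPKM + 1) scale (limma adjusted p = 0.00126). Once a trend with GC content and length had been taken out, that difference was 0.45 (adjusted p = 0.0484). A knockout by small insertions or deletions can leave the mRNA in place, so this reading checks neither the protein nor the edit, and the group is called by its label throughout.

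Summed FPKM ran from 376335 to 437652 per library, and replicates of a group correlated at 0.993 to 0.997 across genes. Hepatocyte markers separated the lines: 12 of 14 had a mean of at least 1 FPKM in both PLC/PRF5 groups, but 6 of 14 in parental MHCC97H cells and 7 of 14 in the libraries labelled EGR1 knockout. ALB, CPS1, SERPINA1 and ASGR1, which define the hepatocyte, were all below 1.3 FPKM in every parental MHCC97H library. The summed level of the 14 was 2344 to 2591 FPKM in the vector group, 3232 to 4183 with EGR1 overexpression, 51.0 to 57.4 in parental MHCC97H cells and 83.9 to 87.4 in the libraries labelled EGR1 knockout. Of 6 cholangiocyte and progenitor markers 4 reached a mean of 1 FPKM in both PLC/PRF5 groups and 5 in both MHCC97H groups, with summed levels of 98.4 to 403 FPKM over all libraries. Of the 5 tested between the lines, 2 were higher in parental MHCC97H cells and 3 lower (KRT7, SOX9 and CD24). Over all genes tested, 38.8% were higher and 40.9% lower. KRT19, counted among the higher, reached a mean of 1 FPKM only in MHCC97H cells and so had to differ. KRT7 was no longer called after a correction for GC content and length (-0.0078, limma adjusted p = 0.943). Of 7 fibroblast markers none or 1 reached that mean in any group (summed 1.05 to 10.95 FPKM), and of 5 endothelial markers 1 or 2 did (1.503 to 8.55 FPKM). Of 6 blood cell markers 1 or 2 did, with a summed level of 27.3 to 215.5 FPKM that came from CD68 (26.3 to 56.2 FPKM in the 12 libraries) and LYZ (95.1 to 178 FPKM in PLC/PRF5 and at most 0.139 FPKM in MHCC97H libraries). PTPRC and CD3E, which define leukocytes and T cells, were at 0.0587 FPKM or less in every library. The part of these markers in the results was not tested.

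Differences followed the GC content of transcripts. Across the genes tested, Spearman's correlation of GC content with the log2 difference was -0.45 for EGR1 overexpression and 0.77 for the libraries labelled EGR1 knockout, as a description across genes, which are not independent replicates. The transcripts of SLC2A8 (62.6% GC), G6PC3 (60.8%), SLC2A4 (57.1%), SLC2A1 (54.8%), HKDC1 (53.3%), HK1 (53.0%) and HK2 (51.2%) lie above the median of 48.7%, and those of SLC2A3 (45.8%) and SLC2A2 (37.8%) lie below it. Values after a correction for GC content and length are therefore given beside the results. Whether the trend is technical was not tested.

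The stretches upstream of SLC2A1, HK2 and HKDC1 are shown as examples. SLC2A1 is a transporter present in both lines, as is SLC2A8. HK2 is the hexokinase near 0 in MHCC97H cells, and HKDC1 is present in both lines, as is HK1. Each run is the 250 bases before the RefSeq start on GRCh38.p14, read 5′ to 3′ on the gene's strand, with GC boxes (GGGCGG on either strand) in capitals. SLC2A1 lies at chr1:42958869-42959118 on the minus strand, HK2 at chr2:74833877-74834126 and HKDC1 at chr10:69220082-69220331, both on the plus strand.
SLC2A1: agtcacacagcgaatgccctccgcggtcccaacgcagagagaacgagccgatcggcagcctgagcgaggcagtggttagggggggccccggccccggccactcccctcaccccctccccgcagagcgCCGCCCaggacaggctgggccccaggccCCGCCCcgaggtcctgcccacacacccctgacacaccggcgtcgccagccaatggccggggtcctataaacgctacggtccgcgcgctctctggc
HK2: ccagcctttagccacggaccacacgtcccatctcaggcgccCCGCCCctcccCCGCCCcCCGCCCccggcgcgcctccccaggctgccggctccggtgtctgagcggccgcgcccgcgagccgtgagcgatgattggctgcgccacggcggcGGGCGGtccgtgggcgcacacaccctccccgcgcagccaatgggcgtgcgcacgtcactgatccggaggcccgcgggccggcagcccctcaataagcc
HKDC1: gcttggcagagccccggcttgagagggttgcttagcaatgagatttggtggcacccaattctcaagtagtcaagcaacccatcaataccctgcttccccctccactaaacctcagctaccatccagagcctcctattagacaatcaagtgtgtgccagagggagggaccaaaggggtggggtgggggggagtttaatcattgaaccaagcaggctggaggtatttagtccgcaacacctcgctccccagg

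SLC2A1 held 2 GC boxes, HK2 held 4 and HKDC1 held 0, and 72.4%, 76.8% and 54.4% of their bases were G or C. In windows of 300 bases (250 before and 50 after a start), 45% of all 35116 RefSeq promoter windows held a GC box. The 9-base EGR1 motif, searched as GCGTGGGCG or GCGGGGGCG on both strands, stood in 5.77% of those windows and in no window of the 7 members that had any. SLC2A3 and SLC2A4 had no window. HK1 had 7 start windows, G6PC3 had 3 and HK2 had 2. The HK2 stretch shown precedes the start whose window has the higher GC content, and the window of its other start held 2 GC boxes. These are matches of letters in short windows and say nothing of binding. On chromosome 10, HKDC1 (69220303 to 69267559) and HK1 (69269984 to 69401884) are neighbours on the plus strand with 2424 bases between them in GENCODE 29.

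**Figure D1:**
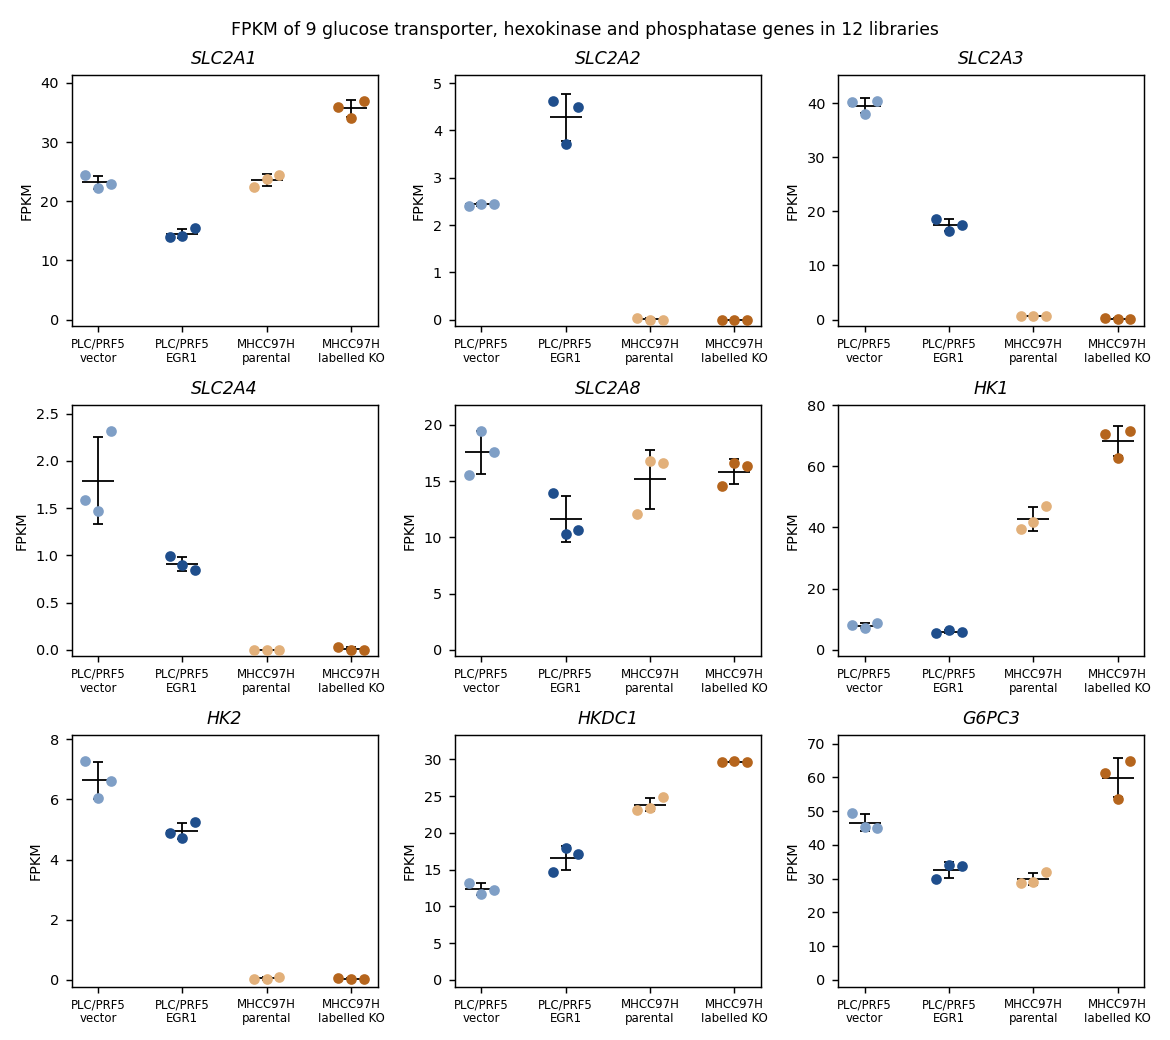
FPKM (y axis, linear, from about 0) of each of the 9 genes in the 12 libraries, with 3 points per group, the group mean as a bar and the SD as whiskers. SLC2A2, SLC2A3, SLC2A4 and HK2 were below 0.7 FPKM in every MHCC97H library, whereas SLC2A1, SLC2A8, HK1, HKDC1 and G6PC3 were above 5 FPKM in all 12.

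Among the 5 SLC2A members, SLC2A3 led in PLC/PRF5 cells. SLC50A1, a hexose transporter outside the set, was higher than SLC2A3, at 53.1, 57.1 and 48.7 FPKM in the vector libraries. It gave 40.2, 38.0 and 40.4 FPKM in the vector libraries against 24.4, 22.3 and 22.9 FPKM for SLC2A1, so that SLC2A3 stood 1.65 to 1.77 times above SLC2A1 within a library. SLC2A8 followed with 15.6, 19.5 and 17.6 FPKM, then SLC2A2 with 2.41, 2.45 and 2.44 FPKM and SLC2A4 with 1.58, 1.47 and 2.32 FPKM. No 2 neighbours in this order overlapped. Of the summed FPKM of the 5 transporters (84.5 ± 1.06, SD, n = 3), SLC2A3 held 46.8% ± 1.24, SLC2A1 27.4% ± 1.34, SLC2A8 20.8% ± 2.40, SLC2A2 2.88% ± 0.0457 and SLC2A4 2.11% ± 0.515.

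In MHCC97H cells the lead among the SLC2A members lay with SLC2A1, while SLC50A1 was at 40.0, 42.4 and 42.5 FPKM in the parental libraries. The parental libraries gave 22.4, 23.8 and 24.4 FPKM of SLC2A1 and 12.1, 16.8 and 16.6 FPKM of SLC2A8. SLC2A3 stood at 0.687, 0.633 and 0.597 FPKM, far below both. The hepatocyte transporter SLC2A2 was listed at 0.0331, 0 and 0 FPKM and SLC2A4 at 0 in all 3. SLC2A1 thus made up 60.1% ± 3.16 (SD, n = 3) and SLC2A8 38.3% ± 3.47 of a smaller sum of 39.4 ± 3.56 FPKM. The libraries labelled EGR1 knockout kept this order, with SLC2A1 at 69.0% ± 1.89, SLC2A8 at 30.7% ± 1.97 and SLC2A3 at 0.311% ± 0.110.

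Part of the SLC2A3 value is uncertain. Of its 50-base stretches, 24.1% also occur in other genes, 23.0% in SLC2A14, its close paralog on chromosome 12. SLC2A14 was at 0.710, 0.729 and 0.638 FPKM in the vector libraries, and adding it to the sum moved the SLC2A1 share from 27.4% to 27.2%. SLC2A1 overlaps the antisense gene SLC2A1-AS1, and whether reads were assigned by strand is not given in the sources used here.

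HKDC1, a hexokinase described later than the classical isoforms, led the hexokinases of PLC/PRF5 cells. Its levels in the vector libraries were 13.2, 11.7 and 12.2 FPKM. HK1, the housekeeping isoform bound to mitochondria, gave 7.95, 7.22 and 8.63 FPKM and overlapped with HK2, the isoform associated with tumours, at 7.27, 6.05 and 6.61 FPKM. HKDC1 held 45.9% ± 1.27 (SD, n = 3) of the summed hexokinase FPKM, HK1 29.4% ± 1.81 and HK2 24.6% ± 0.795. HK3, the isoform of white blood cells, was listed at 0 in 11 of 12 libraries and at 0.0114 FPKM in the other.

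HK1 took the lead in MHCC97H cells, and HK2 was nearly missing. HK1 gave 39.5, 41.8 and 47.0 FPKM in the parental libraries, 1.71 to 1.90 times the HKDC1 level of 23.2, 23.4 and 24.8 FPKM. HK2 was at 0.0268, 0.0418 and 0.113 FPKM there and at 0.0698, 0.0202 and 0.0458 FPKM in the libraries labelled EGR1 knockout. No MHCC97H library thus came near the lowest PLC/PRF5 value of HK2, 4.71 FPKM. HK1 held 64.1% ± 1.18 and HKDC1 35.8% ± 1.24 in the parental group, against 69.6% ± 1.57 and 30.3% ± 1.59 in the libraries labelled EGR1 knockout. HK2 shares 8.6% of its 50-base stretches with the pseudogene HK2P1, and HK1 shares none with any other gene.

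**Figure D2:**
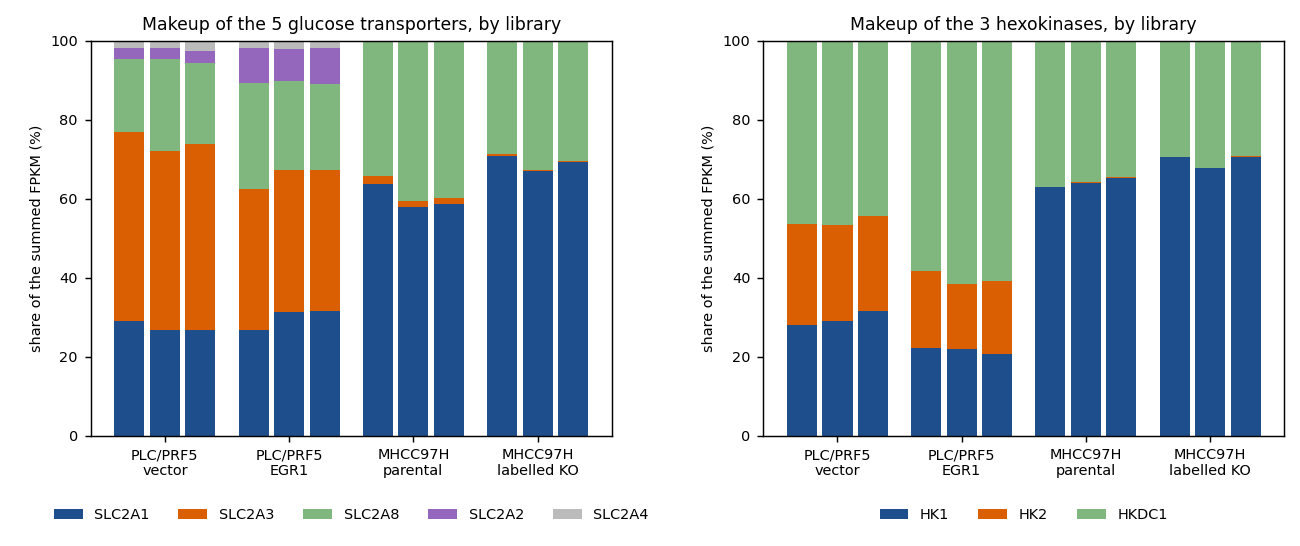
Share of the summed FPKM (y axis, percent, from 0) held by each of 5 glucose transporters (left) and 3 hexokinases (right), with 1 stacked bar per library and 3 bars per group. SLC2A3 holds the largest segment in the PLC/PRF5 bars and SLC2A1 in the MHCC97H bars, and the HK2 segment is present in PLC/PRF5 bars and too thin to see in MHCC97H bars.

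The 2 lines were compared directly through their controls, parental MHCC97H against PLC/PRF5 vector, and these 6 libraries also serve the other comparisons. SLC2A2, SLC2A3 and HK2 passed the filter (a mean of 1 FPKM over the 6) only through PLC/PRF5 cells and so had to differ. Their differences were -1.76 ± 0.076 (SE), -4.63 ± 0.088 and -2.85 ± 0.097 in log2(FPKM + 1). SLC2A4 missed the filter with a mean of 0.894 FPKM and was not tested. Of the 5 members with a mean of at least 1 FPKM in both groups, HK1 and HKDC1 were higher and G6PC3 was lower in MHCC97H cells, and 2 did not pass. Over all 12046 genes tested, 38.8% were higher, 40.9% lower, and the groups of 81% did not overlap.

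HK1 had the larger of the 2 rises, 5.39 times in mean FPKM (log2 difference 2.29 ± 0.10, limma adjusted p = 9.83e-08), and HKDC1 stood 1.92 times higher (0.89 ± 0.085, adjusted p = 1.45e-05). With the GC and length correction HK1 was at 2.48 and HKDC1 at 1.11. G6PC3 was at 49.6, 45.4 and 45.0 FPKM in the vector libraries and at 28.6, 29.2 and 32.1 FPKM in the parental ones, a difference of -0.62 ± 0.083 (adjusted p = 1.22e-04) that the GC and length correction took to 0.01 ± 0.061 (adjusted p = 0.829). SLC2A1 differed by 0.02 ± 0.081 (adjusted p = 0.803) and SLC2A8 by -0.21 ± 0.14 (adjusted p = 0.196), and the libraries of both lines overlapped for each. After the correction both were called higher in MHCC97H cells, SLC2A1 by 0.28 (adjusted p = 8.45e-04) and SLC2A8 by 0.27 (adjusted p = 0.0422). The libraries come from different cell lines, and line, vector and hepatocyte marker level cannot be told apart.

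Shares within a library need no scaling between libraries, and a share can differ where the gene's own level does not. SLC2A1 held 27.4% of the 5 transporters in PLC/PRF5 vector cells and 60.1% in parental MHCC97H cells, a difference of 32.6 percentage points. HK1 held 29.4% and 64.1% of the 3 hexokinases, a difference of 34.7 points. The 3 libraries of each line did not overlap in either share (2-sided exact permutation p = 0.1, the smallest that 3 against 3 can give). The difference in summed FPKM, MHCC97H minus PLC/PRF5, was -45.1 for the transporters and 39.7 for the hexokinases (exact permutation p = 0.1 for each).

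EGR1 overexpression in PLC/PRF5 cells went with lower transporter mRNA. SLC2A3 fell from 40.2, 38.0 and 40.4 FPKM to 18.5, 16.3 and 17.4 FPKM, which is 0.441 times the vector mean (log2 difference -1.14 ± 0.084, SE, limma adjusted p = 7.22e-05). SLC2A1 fell to 13.9, 14.2 and 15.4 FPKM, 0.625 times (-0.64 ± 0.085, adjusted p = 0.0014). SLC2A8 fell to 13.98, 10.3 and 10.6 FPKM, 0.663 times (-0.56 ± 0.13, adjusted p = 0.0135). The groups did not overlap for any of the 3. SLC2A3 still led the SLC2A members, at 1.13 to 1.33 times SLC2A1 within a library, and SLC2A1 now overlapped with SLC2A8.

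SLC2A2 moved the other way. The hepatocyte transporter rose from 2.41, 2.45 and 2.44 FPKM to 4.63, 3.71 and 4.49 FPKM, 1.76 times (0.61 ± 0.10, limma adjusted p = 0.00385). Its call was lost after the GC and length correction, at 0.29 ± 0.13 (adjusted p = 0.113), and its transcript has the lowest GC content of the 9. Of 12 hepatocyte markers tested, 4 rose, 1 fell and 7 did not pass, where 19.2% of all genes tested rose and 10.4% fell. After the correction 4 of these markers were higher and 2 lower. Their part in the SLC2A2 difference was not tested. SLC2A4 was at 0.991, 0.902 and 0.840 FPKM with EGR1 overexpression, below all vector libraries, and passed the filter only through the vector group (-0.53 ± 0.13, adjusted p = 0.0161).

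Among the hexokinases HK1 and HK2 fell and HKDC1 rose. HK1 gave 5.61, 6.39 and 5.80 FPKM with EGR1 overexpression, 0.748 times the vector mean (-0.36 ± 0.10, limma adjusted p = 0.0257). HK2 gave 4.88, 4.71 and 5.24 FPKM, 0.744 times (-0.36 ± 0.10, adjusted p = 0.0260). HKDC1 gave 14.7, 17.9 and 17.1 FPKM, 1.34 times (0.39 ± 0.10, adjusted p = 0.0194). The family's sum moved little: summed hexokinase FPKM was 26.9 ± 1.82 with vector and 27.5 ± 1.99 with EGR1 overexpression (SD, n = 3, exact permutation p = 0.7). HKDC1 held 45.9% of that sum with vector and 60.3% with EGR1 overexpression, and HK1 held 29.4% and 21.6%, with no overlap between groups (exact permutation p = 0.1 for each). The ratio of HK1 to HK2 had a median of 1.19 with vector and 1.15 with EGR1 overexpression.

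G6PC3 fell to 30.0, 34.0 and 33.9 FPKM, 0.700 times the vector mean (-0.50 ± 0.088, limma adjusted p = 0.00432). In all, 8 members had a mean of at least 1 FPKM in both groups, of which 2 were called higher and 6 lower, against 19.2% of genes higher and 10.4% lower over the 11671 tested. None of the 8 overlapped between groups, which held for 47.7% of all genes. The median difference of the 9 members tested was -0.50, against 0.09 over all genes. After the GC and length correction 1 of the 8 was higher and 6 lower, and SLC2A2 did not pass. Of 10829 genes then tested, 1823 were higher and 1935 lower. Corrected differences were -0.63 for SLC2A1, -1.22 for SLC2A3 and -0.46 for SLC2A8. For HK1, HK2, HKDC1 and G6PC3 they were -0.36, -0.41, 0.40 and -0.42. The calls of HK1 and HK2 were the least firm: each lost its call when any of 5 of the 6 libraries was left out. Without EGR1 replicate 2, or without EGR1 replicate 3, 4 of the 9 members tested were past the threshold, in both cases SLC2A1, SLC2A2, SLC2A3 and G6PC3.

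The summed FPKM of the 5 transporters was 84.5 ± 1.06 with vector and 48.7 ± 3.34 with EGR1 overexpression, a difference of -35.8 (SD, n = 3, exact permutation p = 0.1). SLC2A3 held 46.8% of that sum with vector and 35.8% ± 0.179 with EGR1 overexpression, with no overlap (exact permutation p = 0.1). The SLC2A1 share was 27.4% with vector and 29.9% ± 2.71 with EGR1 overexpression, and the groups overlapped (exact permutation p = 0.2). SLC2A2 held 2.88% and 8.76% ± 0.529. The 5 members together held 80.2% of the FPKM of all SLC2A genes with vector and 75.1% with EGR1 overexpression. SLC2A6, a lysosomal relative outside the set, held 15.2% and 17.9%.

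In MHCC97H cells the libraries labelled EGR1 knockout were compared with the parental ones. G6PC3 showed the largest difference of the 5 members tested. It was at 61.4, 53.6 and 64.8 FPKM, 2.00 times the parental mean (0.97 ± 0.098, limma adjusted p = 6.79e-05). HK1 was at 70.7, 62.8 and 71.5 FPKM, 1.60 times (0.67 ± 0.097, adjusted p = 4.19e-04), and SLC2A1 at 36.0, 34.1 and 37.0 FPKM, 1.51 times (0.58 ± 0.083, adjusted p = 4.01e-04). HKDC1 was at 29.6, 29.8 and 29.7 FPKM, 1.25 times (0.31 ± 0.080, adjusted p = 0.0080). All 4 lay above every parental library. SLC2A8, at 14.6, 16.6 and 16.3 FPKM, overlapped with the parental values (0.07 ± 0.13, adjusted p = 0.636).

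Of the 5 members with a mean of at least 1 FPKM in both groups, 4 were called higher and 0 lower, where 34.8% of the 11577 genes tested were higher and 31.5% lower. With so many genes called, groups that do not overlap were common, at 71.8% of genes. The GC and length correction shrank each of the 4 differences: SLC2A1 to 0.24 (adjusted p = 0.00484), HK1 to 0.43 (adjusted p = 9.36e-04), G6PC3 to 0.27 (adjusted p = 0.00865) and HKDC1 to 0.04 (adjusted p = 0.504), which lost its call. SLC2A8, whose transcript has the highest GC content of the 9, changed to -0.61 (adjusted p = 0.00199). After the correction 24.3% of genes were higher and 22.4% lower, and 3 of the 5 members were higher and 1 lower. Scaling the libraries to a common total left HKDC1 at 0.16 (adjusted p = 0.111).

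SLC2A3, already low in this line, was at 0.217, 0.151 and 0.112 FPKM in the libraries labelled EGR1 knockout, below all parental libraries. It missed the filter. With every gene above 0 tested, its difference was -0.50 ± 0.049 (limma adjusted p = 0.00100). SLC2A2 was listed at 0 in all 3 libraries, SLC2A4 at 0.0289, 0 and 0 FPKM, and HK2 overlapped with the parental values, and none of these was tested. The summed transporter FPKM was higher by 12.3 and the summed hexokinase FPKM by 31.4, at 98.1 ± 4.77 against 66.6 ± 4.79 (SD, n = 3, exact permutation p = 0.1 for each). The SLC2A1 share of the transporter sum was 8.95 percentage points higher and the HK1 share of the hexokinase sum 5.52 points higher (exact permutation p = 0.1 for each).

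**Figure D3:**
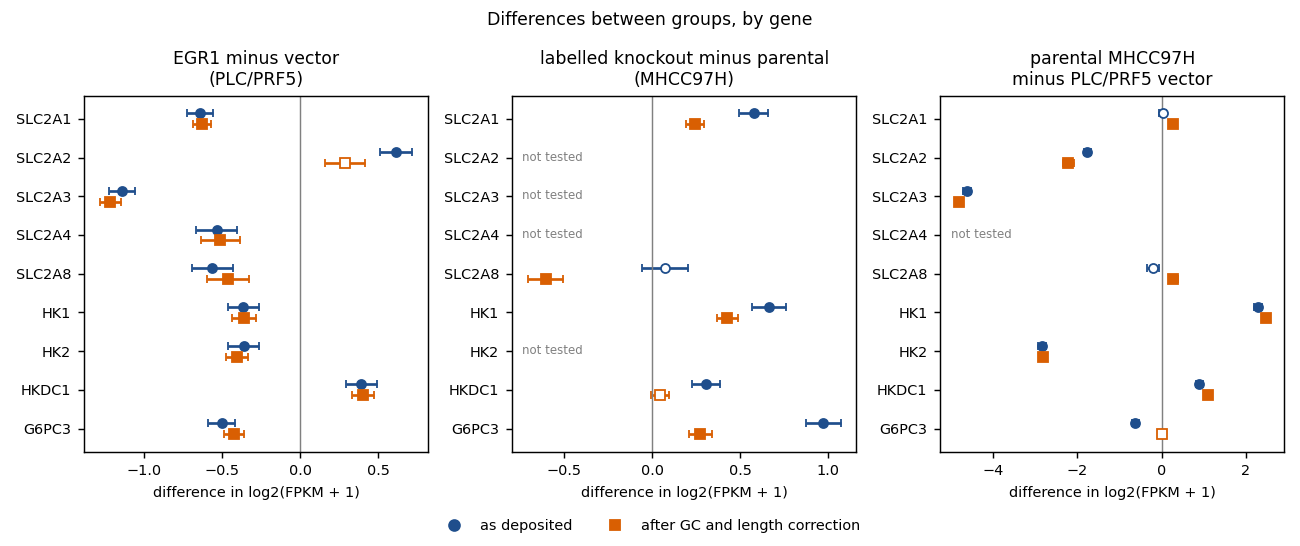
Difference in log2(FPKM + 1) between groups (x axis) for each gene (y axis) in 3 comparisons, as deposited (circles) and after the GC and length correction (squares). Whiskers are standard errors, and filled symbols have an adjusted p under 0.05. SLC2A1, HK1 and G6PC3 lie left of 0 with EGR1 overexpression and right of 0 in the libraries labelled EGR1 knockout, and the squares lie nearer to 0 than the circles for those 3 in MHCC97H cells.

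The 2 EGR1 comparisons use separate libraries, and the difference between them was tested in a single fit of all 12, a test added after the data were seen. SLC2A1 (-1.22 ± 0.10, SE, limma adjusted p = 2.88e-06), HK1 (-1.03 ± 0.13, adjusted p = 4.51e-05) and G6PC3 (-1.48 ± 0.13, adjusted p = 2.88e-06) differed most, each lower with EGR1 overexpression and higher in the libraries labelled EGR1 knockout. They remained past the threshold after the correction, at -0.89, -0.80 and -0.73. HKDC1 rose in both, and the test of its 2 differences against each other did not pass, at 0.09 ± 0.12 (adjusted p = 0.544). After the correction that value was 0.35 (adjusted p = 0.00455). Over all 12090 genes, 33.4% were called higher and 30.4% lower in this test. The 2 comparisons differ in cell line, control and construct, and EGR1 mRNA was higher in the first named group of both, so these differences cannot be assigned to EGR1.

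The other hexose transporters, 14 genes including SLC50A1, were mostly too low to test. With EGR1 overexpression, where 19.2% of all genes tested rose and 10.4% fell, 1 of 5 tested rose and 3 fell. Their median was -0.40 against 0.09 over all genes. Those called were SLC2A13, a proton myo-inositol carrier (0.48 ± 0.14, limma adjusted p = 0.0287), SLC2A9, a urate transporter (-0.51 ± 0.11, adjusted p = 0.0110), SLC2A6 (-0.44 ± 0.097, adjusted p = 0.0108) and SLC50A1 (-0.40 ± 0.11, adjusted p = 0.0279). After the GC and length correction SLC2A13 lost its call, at 0.03 (adjusted p = 0.807), and the other 3 stayed lower. In the libraries labelled EGR1 knockout, where 34.8% of all genes tested were higher and 31.5% lower, 2 of 5 were higher and 2 lower. These were SLC2A6 (0.84), SLC2A11 (0.41), SLC2A10 (-1.22) and SLC2A13 (-0.44). SLC2A9 and SLC2A10 passed the filter only through the vector and the parental group, in that order. After the correction SLC2A13 turned to 0.32 (adjusted p = 0.0229), SLC2A11 lost its call at 0.04 (adjusted p = 0.833), SLC2A6 was at 0.18 (adjusted p = 0.0498) and SLC2A10 at -1.36. SLC50A1, not called before it, was then called lower, at -0.19 (adjusted p = 0.0291).

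Around glucose 6-phosphate, 12 further genes were read and 8 were tested. With EGR1 overexpression 1 rose and 3 fell: PGM2 by 0.54 (limma adjusted p = 0.00775), SLC37A4, which carries glucose 6-phosphate into the endoplasmic reticulum, by -0.65 (adjusted p = 0.00123), PGM1 by -0.64 (adjusted p = 0.00144) and GPI by -0.31 (adjusted p = 0.0451). In the libraries labelled EGR1 knockout 6 were higher and 1 lower, and the largest differences were those of galactokinase GALK1 (1.19), H6PD (0.58), SLC37A4 (0.55) and PGM2 (-0.54). KHK, counted among the higher, passed the filter only through the libraries labelled EGR1 knockout. After the GC and length correction 3 were higher and the other 5 did not pass. GALK1 was then at 0.44 and H6PD at 0.28, while SLC37A4, at 0.0023 (adjusted p = 0.982), and PGM2, at -0.04 (adjusted p = 0.680), lost their calls. With EGR1 overexpression the correction left the 4 calls in place, with PGM2 at 0.29, and H6PD was then also called, at 0.24 (adjusted p = 0.038). G6PC, the liver phosphatase, was at 0.340 to 0.752 FPKM in PLC/PRF5 cells and listed at 0 in every MHCC97H library. The median of the 8 was -0.24 with EGR1 overexpression and 0.44 in the libraries labelled EGR1 knockout, where it was 0.02 over all genes. Of all genes tested, 19.2% rose and 10.4% fell with EGR1 overexpression, and 34.8% were higher and 31.5% lower in the libraries labelled EGR1 knockout.

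Of 16 regulators of glucose uptake and hexokinase, 15 were tested in each EGR1 comparison. With EGR1 overexpression 2 rose and 1 fell: HIF1A, the oxygen-regulated factor that drives SLC2A1 and HK2 under hypoxia, by 0.50 (limma adjusted p = 0.00796), MLXIPL, which encodes the glucose-responsive factor ChREBP, by 0.45 (adjusted p = 0.0217), and GIPC1, which binds the tail of SLC2A1, by -0.36 (adjusted p = 0.0258). HIF1A was no longer called after the correction, at 0.11 (adjusted p = 0.257), and GIPC1 was at -0.22 (adjusted p = 0.0484). Other regulators gained a call, so that 3 of the 15 were then higher and 3 lower. In the libraries labelled EGR1 knockout 4 were higher and 7 lower, with GIPC1 at 1.34, ASPSCR1 at 0.70, HIF1A at -1.46 and STXBP3 at -0.89 the 4 largest. MLXIPL, counted among the lower, passed the filter only through the parental group. After the correction ASPSCR1, at -0.03 (adjusted p = 0.764), and STXBP3, at -0.21 (adjusted p = 0.122), lost their calls, and GIPC1 was at 0.60. Of the 15, 3 were then higher and 4 lower. HIF1A mRNA was 115, 99.3 and 81.9 FPKM in the parental libraries and 38.4, 39.3 and 27.8 FPKM in those labelled EGR1 knockout, and stayed lower after the correction (-0.77, adjusted p = 1.72e-04). The lists' medians were 0.05 and -0.19. The shares of all genes tested were 19.2% higher and 10.4% lower with EGR1 overexpression. They were 34.8% higher and 31.5% lower in the libraries labelled EGR1 knockout.

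Between the lines, of 5 other hexose transporters tested 2 were higher and 2 lower in parental MHCC97H cells, led by SLC2A10 (1.71) and SLC2A13 (1.32) on the high side and SLC2A6 (-1.29) on the low side. SLC2A10 passed the filter only through MHCC97H cells and so had to differ, and SLC2A13 was at 0.64 after the correction. Of 8 genes around glucose 6-phosphate 5 were lower and 3 did not pass, with fructokinase KHK (-2.77), SLC37A4 (-1.50), H6PD (-1.19) and PGM1 (-0.85) leading. KHK passed the filter only through PLC/PRF5 cells and so had to differ. Of 16 regulators 8 were higher and 7 lower, and the largest differences were those of HIF1A (2.17), MYC (1.92), GIPC1 (-1.40) and VDAC3, a mitochondrial porin (-1.39). Of those counted, TXNIP and ARRDC4 passed the filter through 1 line alone. The list medians were 0.17, -0.58 and 0.22 against -0.02 over all genes. In the same order of lists, the GC and length correction gave 4 higher and 1 lower, 2 higher and 6 lower, and 7 higher and 6 lower. Over all 12046 genes tested, 38.8% were higher and 40.9% lower before it.

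**Figure D4:**
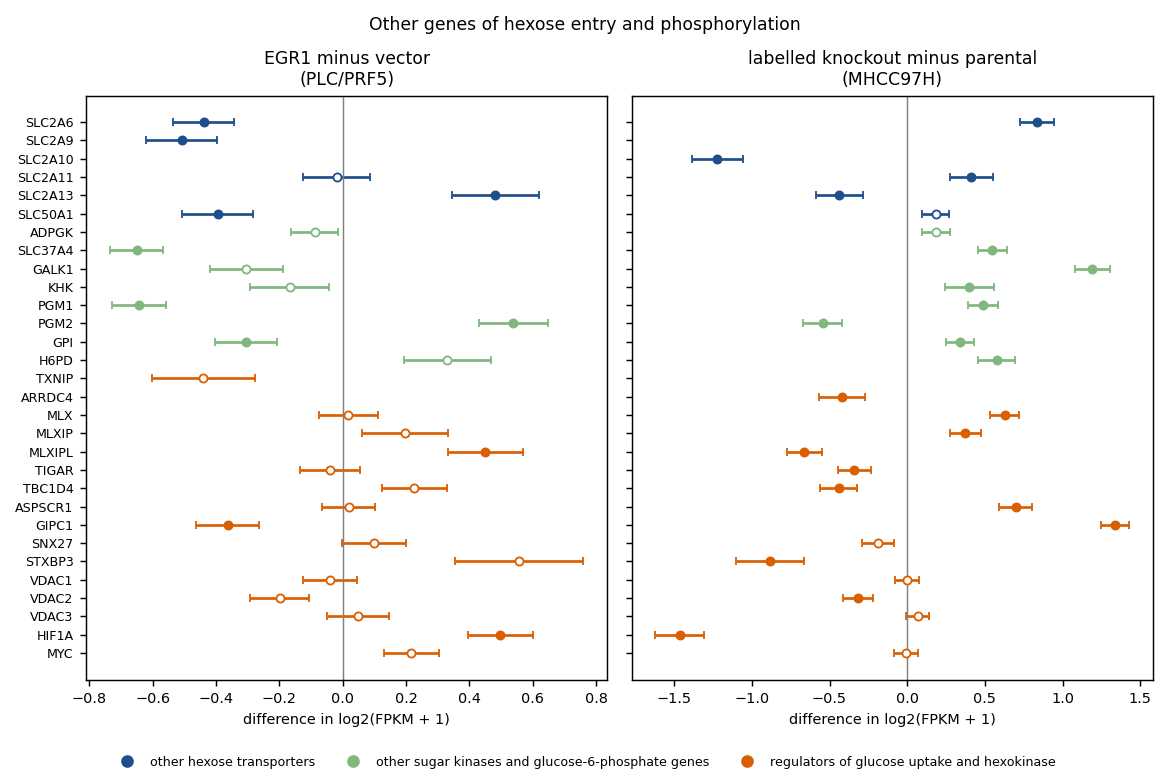
Difference in log2(FPKM + 1) (x axis, with standard errors) for other hexose transporters, genes around glucose 6-phosphate and regulators (y axis), with EGR1 overexpression (left) and in the libraries labelled EGR1 knockout (right). Filled points have an adjusted p under 0.05, and HIF1A stands at 0.50 on the left and -1.46 on the right.

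Genes with patterns most like those of the members were sought among 11448 genes by the root mean square difference of centred log2(FPKM + 1) values over the 12 libraries. The closest match of all was NUCB1 for G6PC3, at 0.0564. SLC2A1 was followed by MAGED2 (0.0772) and GAA (0.0779), SLC2A2 by NR5A2 (0.0794) and ZNF215 (0.0967), and HKDC1 by CEP72 (0.0769) and GCNT3 (0.0871). HK2 had HBQ1 (0.0807) and MACROH2A2 (0.116), SLC2A4 had SORT1 (0.103) and NCSTN (0.126), and SLC2A8 had SDHAF4 (0.128) and KDELR2 (0.166). HK1 was matched by ARHGAP23 (0.149) and TOX2 (0.153), both near 0 in PLC/PRF5 cells. SLC2A3 had the loosest matches, SLC1A6 at 0.223 and NDN at 0.246, and the second gene for G6PC3 was EPHB4 (0.0900). Many genes share these shapes because the 4 groups dominate them.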

How the data were processed

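RNA from 12 libraries was selected with oligo(dT), treated with duplex-specific nuclease and sequenced on a NovaSeq. The authors deposited FPKM per gene and library, and the submitters' processing notes name StringTie and hg38. The aligner, the annotation and the use of strand are not given in the sources used here. The FPKM show no steps of whole reads, so the depth is unknown and no counting interval is given. Of 19932 names other than assembled loci, 97.6% matched GENCODE 29, which gave coordinates, length and GC content.

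Values were log2-transformed after adding 1 and tested with limma 3.58.1 in R 4.3.3 with an intensity trend, without covariates, for all genes whose mean reached 1 FPKM across the 6 libraries of the comparison (2-sided, Benjamini-Hochberg over all genes tested, threshold 0.05). Fold changes on this scale understate those of low genes. Shares were FPKM over the family's sum in the same library, tested by exact permutation in Python 3.11.15. Figures were drawn with matplotlib 3.10.9. The GC and length correction fitted splines (5 degrees of freedom) on transcript GC content and log length to the deviations of each library and subtracted them. A biological difference that tracks GC content is subtracted with them. Each gene keeps its mean over the libraries fitted, so a bias between genes is not corrected. The fits were tested on simulated data.

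All 9 members and EGR1 were named whatever their values. From the other lists came genes past the threshold, at most the 4 largest per comparison, and per member the 2 genes of most similar pattern. G6PC, HK3 and SLC2A14 and the libraries' markers were added beside them. Some genes of the lists are not reported here. Members and lists were chosen with earlier results of these data known. Alternatives were a pseudocount of 0.1, no filter, common total, quantile normalization, no trend, a fit of all 12 libraries, the GC and length correction, the replicate block, other share definitions and leaving out each library. No library was left out of the main results.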

Additional observations from a re-analysis of the deposited data

Results flagged for a closer look

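The EGR1 overexpression effect in PLC/PRF5 cells was set against the difference of the libraries labelled EGR1 knockout in MHCC97H cells, in a test added after the data were seen. Of 8 members tested, 7 passed the limma threshold, where 33.4% of all 12090 genes tested were called higher and 30.4% lower. The difference between the 2 effects was -1.22 for SLC2A1, -1.03 for HK1 and -1.48 for G6PC3, where the 2 groups of effects have opposite signs. It was -0.63 for SLC2A8 (adjusted p = 0.0134), whose MHCC97H difference did not pass the threshold.

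For SLC2A2 (0.63), SLC2A3 (-0.64) and HK2 (-0.34) the MHCC97H levels were below 0.7 FPKM in every library, and these members passed the filter only through PLC/PRF5 cells. For SLC2A2 and HK2 these values lie close to the PLC/PRF5 differences alone (0.61 and -0.36), whereas for SLC2A3 a difference of -1.14 in PLC/PRF5 cells stands beside one of -0.50 in MHCC97H cells. With a pseudocount of 0.1 in place of 1, SLC2A3 gave 0.35 (adjusted p = 0.153) and HK2 gave -0.29 (adjusted p = 0.383). HK2 also lost its call when vector replicate 1, EGR1 replicate 2, parental replicate 1 or parental replicate 2 was left out (-0.28 to -0.33 over these). After the GC and length correction SLC2A2 gave -0.28 (adjusted p = 0.228) and SLC2A8 gave 0.10 (adjusted p = 0.671).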

How the results depend on the processing

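Of 679 values recomputed under the alternatives, 610 kept their direction and side of the threshold (counts: within 1.5 times), 32 fell below the threshold, 9 passed it, 15 changed sign and 13 moved. The sign changes were those of SLC2A8 in the libraries labelled EGR1 knockout (-0.61 after the GC and length correction, with or without the replicate block, -0.0709 at a common total), of SLC2A8 (0.27) and G6PC3 (0.0149) between the lines after that correction, with or without the block, and of 3 differences between the EGR1 comparisons: SLC2A2 (-0.28) and SLC2A8 (0.10) after the correction, with or without the block, and SLC2A3 (0.35) with the smaller pseudocount. The cause was not tested. Leaving out each library took the SLC2A8 difference in the libraries labelled EGR1 knockout from -0.0709 to 0.15, below 0 without parental replicate 1, and the SLC2A1 difference between the lines from -0.0039 to 0.0589, below 0 without vector replicate 2 and without parental replicate 3.

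With EGR1 overexpression, leaving out 1 library gave 1919 to 4007 called genes (3457 with all) and 4 to 9 called members. The count of genes was 2246 without vector replicate 3, 1919 without EGR1 replicate 2 and 2208 without EGR1 replicate 3. For the libraries labelled EGR1 knockout the ranges were 6419 to 7521 genes and 4 to 4 members, between the lines 8898 to 9556 and 5 to 7, and for the difference of the EGR1 comparisons 7096 to 7819 and 6 to 7. The GC and length correction left 5041 called genes in the libraries labelled EGR1 knockout (5038 with the block) of 7671. With EGR1 overexpression the higher calls were 64.8% of all calls, 46.0% after quantile normalization and 48.5% after the correction. At a common total, 41.6% of calls in the libraries labelled EGR1 knockout were higher, against 52.5%.

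As log2 ratios, SLC2A1 to SLC2A3 differed by 0.51 with EGR1 overexpression, 2.12 in the libraries labelled EGR1 knockout and 5.77 between the lines, and HK1 to HK2 by 0.0055, 0.80 and 7.84. These are other quantities than the shares. Leaving out 1 library gave 1.56 to 3.97, 7.80 to 10.8 and 30.8 to 33.8 percentage points for the SLC2A1 share and -8.56 to -6.80, 4.96 to 6.42 and 33.9 to 35.7 for HK1.

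Same-numbered replicates correlated at -0.13, 0.14 and -0.08 (vector and EGR1), 0.03, 0.03 and 0.47 (parental and EGR1 knockout label) and -0.39, -0.0082 and -0.05 (vector and parental). These are correlations of values centred on the group mean of each gene. For replicate 3 of parental and EGR1 knockout label, the mean with other numbers was -0.25, and for replicate 2 of vector and EGR1 it was -0.08. Whether same-numbered libraries share a batch was not tested. The replicate block gave 3253, 7987 and 9249 called genes and 9, 4 and 6 called members, as without it for the members. With 3 pairs no exact p of a share can go below 0.25. Depth being unknown, values near 0 FPKM have no detection limit.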
